A study of Mus musculus with 10 samples.

Results

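Organic anion transporting polypeptides are membrane carriers of the Slco gene family that move bile salts, steroid conjugates, thyroid hormones, prostaglandins and many drugs across the cell membrane. In the mouse kidney several of them work in the proximal tubule, the segment that takes up organic anions from blood and from filtrate. Their genes are partly clustered, and the Slco1a genes sit next to each other on chromosome 6. Kidney levels of Slco1a1 are known to be higher in male than in female mice and to be raised by androgen.

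The values described here are those of 7 genes of 55952 in the deposited table, taken by name: Slco1a1, Slco1a4, Slco1a6, Gm6614, Slco2a1, Slco3a1 and Slco4c1. Gm6614 is a predicted gene of the chromosome 6 cluster. The genes were chosen with their change at altitude already known, so their hypoxia against control values are given as a description, without a p-value.

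Kidneys came from C57BL/6 mice, a common inbred laboratory strain, kept for 30 days at 4200 m (hypoxia, 5 libraries) or for 30 days at 400 m (control, 5 libraries). No transgene or other treatment is named for either group, and the sources give neither age nor sex. Altitude and the place of housing changed together and cannot be told apart. Whether each library came from its own mouse is not stated, so a p-value speaks only of the spread among these libraries, which may be technical. Expression was deposited as FPKM, fragments scaled to gene length and to a size for each library, which allows levels of different genes to be compared. That size was 0.949 (control replicate 2) to 1.10 (hypoxia replicate 5) of the reads assigned to genes. Size factors by median of ratios were 1.00083 in every library, so the deposited values were already even on that scale.

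The libraries held 16561672 to 17845464 reads assigned to genes. The extraction protocol names the retina, but kidney is the labelled tissue. The summed level of 8 proximal tubule markers was 1031 to 2149 FPKM in hypoxia and 1652 to 2131 FPKM in controls, and that of 5 retina markers was 0.793 to 2.78 FPKM in hypoxia and 2.84 to 5.58 FPKM in controls, with Rcvrn at 0 in all. Hypoxia replicates 4 and 5 stood apart from the other hypoxia libraries. Adrenal cortex markers summed to 1027 FPKM in hypoxia replicate 4, against 1.41 to 1.57 FPKM in hypoxia replicates 1 to 3 and 0.847 to 1.40 FPKM in controls. B cell markers summed to 321 FPKM in hypoxia replicate 5, against 1.86 to 2.05 FPKM in hypoxia replicates 1 to 3 and 0.825 to 1.62 FPKM in controls. Fat markers in hypoxia replicate 4 summed to 614 FPKM, against 72.5 to 137 FPKM in hypoxia replicates 1 to 3 and 58.3 to 162 FPKM in controls. Results are therefore also given without hypoxia replicates 4 and 5. Hypoxia replicate 2, which is kept there, held hepatocyte markers at 61.9 FPKM, against 8.26 to 11.2 FPKM in hypoxia replicates 1 and 3 and 6.51 to 12.5 FPKM in controls.

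The chromosome 6 genes lie on the minus strand within 403 kb (GRCm38, chr6:141805440-142208521) in the order Slco1a4, Slco1a1, Gm6614 and Slco1a6. Slco1a1 (chr6:141907282-141946962) and Gm6614 (chr6:141971845-142011414) are separated by 24.9 kb. Slco1a4 spans chr6:141805440-141856199 and Slco1a6 spans chr6:142085761-142208521. The other members lie elsewhere, Slco2a1 at chr9:102988712-103096002 on the plus strand, Slco3a1 at chr7:74275419-74554780 on the minus strand and Slco4c1 at chr1:96816270-96872171 on the minus strand.

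The coding sequences of the 4 clustered genes were all 2010 bases long and aligned without gaps. Slco1a1 shared 85.3% of its coding bases with Gm6614, 83.9% with Slco1a6 and 86.7% with Slco1a4. Sequence decides here whether a read can be told to belong to Slco1a1 or to Gm6614, so a stretch where the genes differ and a stretch where they do not are shown. The 60-base window with the most differences, summed over the pairs of these genes, covers coding bases 1165 to 1224. It lies in exon 9 of Slco1a1 (chr6:141923013-141923072), exon 9 of Gm6614 (chr6:141989136-141989195), exon 10 of Slco1a6 (chr6:142101639-142101698) and exon 9 of Slco1a4 (chr6:141817765-141817824), all on the minus strand of GRCm38. The coding strand is printed 5′ to 3′, and capitals mark bases that differ from Slco1a1.
Slco1a1: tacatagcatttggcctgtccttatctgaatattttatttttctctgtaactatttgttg
Gm6614: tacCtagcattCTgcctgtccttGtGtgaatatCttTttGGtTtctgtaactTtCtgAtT
Slco1a6: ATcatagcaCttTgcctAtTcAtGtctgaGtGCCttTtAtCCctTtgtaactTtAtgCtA
Slco1a4: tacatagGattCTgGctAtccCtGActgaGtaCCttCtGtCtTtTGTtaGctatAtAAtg

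In this window Gm6614 differed from Slco1a1 at 14 bases, Slco1a6 at 21 and Slco1a4 at 22. The opposite case is a run of 157 bases, coding bases 657 to 813, that is identical in Gm6614 and Slco1a6. Its middle 60 bases, coding bases 705 to 764, are also identical in Slco1a1 (exon 7, chr6:141925675-141925734) and Slco1a4, so a read that lay wholly inside them could come from any of the 4 genes.
Slco1a1, Gm6614, Slco1a6 and Slco1a4: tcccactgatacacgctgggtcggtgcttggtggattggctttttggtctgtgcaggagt

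Such shared stretches were short. Of all 50-base words in Gm6614 exons, 4.45% also occurred in exons of another gene, and of all 100-base words 2.41%, these longer words all being shared with Slco1a6. Slco1a1 and Gm6614 shared 47 words of 50 bases and 0 words of 100 bases. How the authors' counting treated reads with several matches is not given in the sources used here. Exons of Slco1a1, Gm6614, Slco1a6 and Slco1a4 overlapped no exon of any other gene in the GRCm38 annotation.

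Slco1a1, an uptake carrier of steroid conjugates and other organic anions in the apical membrane of the proximal tubule, was much lower in hypoxia. It had 8.67, 9.10, 2.53, 4.83 and 2.36 FPKM in hypoxia replicates 1 to 5, against 54.0, 82.4, 52.6, 34.2 and 53.2 FPKM in control replicates 1 to 5. The groups did not overlap, and the lowest control library was still well above the highest hypoxia library. The mean was 5.50 ± 3.25 FPKM in hypoxia and 55.3 ± 17.3 FPKM in controls (SD, n = 5 each), 10.1-fold higher in controls. Its log2 fold change was -3.35 with an SE of 0.371, which ranked 3 among the decreases of 15264 genes tested. Without hypoxia replicate 2, the library with hepatocyte markers, it was -3.57. Hypoxia replicates 3 and 5 held the lowest levels and hypoxia replicates 1 and 2 the highest of their group. With hypoxia replicates 4 and 5 left out it was -3.06, and Slco1a1 was 8.17-fold higher in controls.

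Gm6614, which has no established function, ran the other way. It had 5.75, 3.86, 7.90, 3.59 and 4.61 FPKM in hypoxia replicates 1 to 5, against 0.366, 0.224, 0.413, 0.337 and 0.270 FPKM in control replicates 1 to 5. These values rested on 156 to 332 reads in hypoxia and on 9 to 17 reads in controls, all above the 3 reads taken as the floor of counting. Every hypoxia library was above every control library. The mean was 5.14 ± 1.76 FPKM in hypoxia and 0.322 ± 0.0754 FPKM in controls (SD, n = 5 each), 16.0-fold higher in hypoxia. On the scale of log2(FPKM + 0.5) it changed by 2.73 with an SE of 0.187, which understates the change of a gene this low in controls. Without hypoxia replicates 4 and 5 the ratio of means was 18.1 and the log2 fold change 2.90. Gm6614 was highest in hypoxia replicate 3, in which Slco1a1 was close to its lowest.

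**Figure D1:**
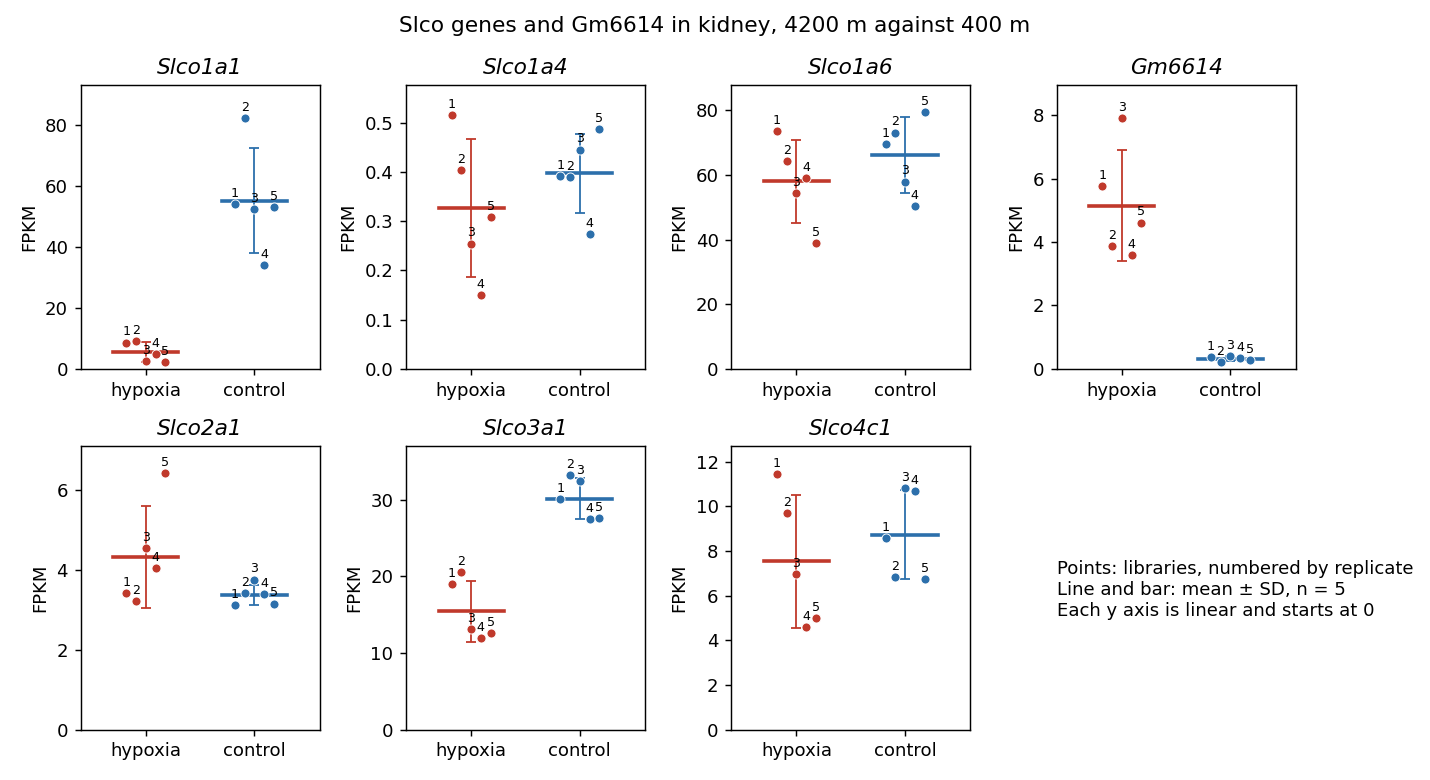
FPKM of the 7 genes in each library (y axes, linear, starting at 0), hypoxia in red and control in blue; points are libraries numbered by replicate, and lines with bars are means ± SD of 5 libraries. Slco1a1 and Slco3a1 lie lower and Gm6614 higher in hypoxia without overlap, while the groups of the other 4 genes overlap.

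Slco1a6, a carrier that is abundant in mouse kidney, was the highest of the 7 genes in both groups. It had 73.6, 64.2, 54.3, 59.0 and 38.9 FPKM in hypoxia replicates 1 to 5, against 69.6, 73.0, 57.9, 50.4 and 79.3 FPKM in control replicates 1 to 5. The groups overlapped, with hypoxia replicate 5 below all other libraries. It had a log2 fold change of -0.20 with an SE of 0.176, and -0.036 without hypoxia replicates 4 and 5.

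Slco1a4, known from liver and from the blood-brain barrier as a carrier of bile salts and digoxin, was low in both groups, though above the floor of 3 reads. It had 0.516, 0.403, 0.255, 0.149 and 0.308 FPKM in hypoxia replicates 1 to 5, against 0.391, 0.389, 0.445, 0.275 and 0.488 FPKM in control replicates 1 to 5. The groups overlapped, on 17 to 58 reads in hypoxia and 32 to 52 reads in controls. Its mean was below the 0.5 FPKM required for the test, so it is the member that was not tested.

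Slco3a1, a widely expressed carrier of prostaglandins and thyroxine, was lower in hypoxia. It had 18.9, 20.6, 13.1, 11.9 and 12.6 FPKM in hypoxia replicates 1 to 5, against 30.1, 33.2, 32.4, 27.4 and 27.6 FPKM in control replicates 1 to 5. The groups did not overlap, and hypoxia replicates 1 and 2 were again the highest of their group. The mean was 15.4 ± 4.03 FPKM in hypoxia and 30.1 ± 2.66 FPKM in controls (SD, n = 5 each), 1.95-fold higher in controls. This is a log2 fold change of -0.98 with an SE of 0.153, and -0.78 without hypoxia replicates 4 and 5.

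Slco2a1, the prostaglandin transporter that clears prostaglandins into cells for breakdown, had 3.42, 3.22, 4.54, 4.06 and 6.42 FPKM in hypoxia replicates 1 to 5. It had 3.12, 3.42, 3.76, 3.40 and 3.16 FPKM in control replicates 1 to 5. The groups overlapped, and the highest value was that of hypoxia replicate 5. In that library macrophage markers summed to 244 FPKM, against 38.0 to 52.0 FPKM in hypoxia replicates 1 to 3 and 42.0 to 54.4 FPKM in controls, and their part in the value was not tested. The log2 fold change was 0.29 with an SE of 0.153, and 0.12 without hypoxia replicates 4 and 5.

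Slco4c1, known in rat and human kidney as a basolateral carrier of digoxin and thyroid hormone, turned its direction with the libraries used. It had 11.4, 9.71, 6.96, 4.60 and 5.01 FPKM in hypoxia replicates 1 to 5, against 8.59, 6.83, 10.8, 10.7 and 6.74 FPKM in control replicates 1 to 5. The groups overlapped, with hypoxia replicates 4 and 5 the lowest of all libraries and hypoxia replicate 1 the highest. The log2 fold change was -0.25 with an SE of 0.246 over all libraries and 0.10 without hypoxia replicates 4 and 5.

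Of the 6 members tested, 3 passed an adjusted p of 0.05 in limma, 2 lower (Slco1a1 and Slco3a1) and 1 higher (Gm6614). Over all genes tested 11.5% passed, 7.79% lower and 3.66% higher in hypoxia, and since the members were picked on this contrast nothing is read from their share. The same 3 did not overlap between groups, against 14.2% of all genes (8.54% lower, 5.68% higher). Without hypoxia replicates 4 and 5 the same 3 members passed, beside 12.3% of 14724 genes (7.75% lower, 4.53% higher). The groups of these 3 still did not overlap, against 21.5% of genes (11.8% lower, 9.73% higher).

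**Figure D2:**
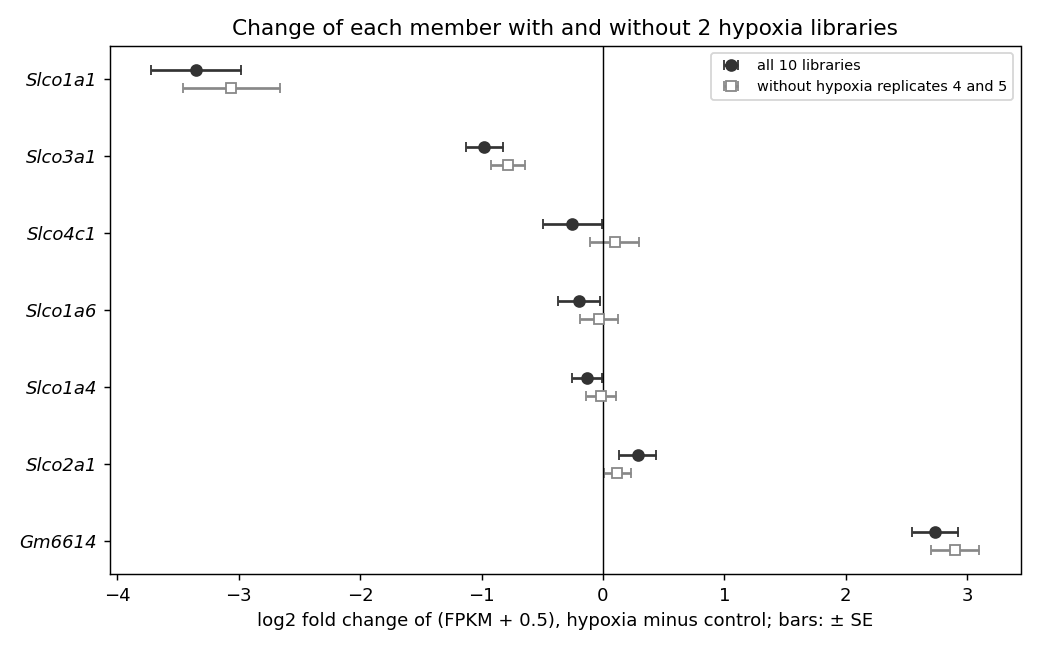
Log2 fold change of FPKM + 0.5, hypoxia minus control (x axis), for each gene (rows), with bars of ± SE; filled circles use all 10 libraries and open squares leave out hypoxia replicates 4 and 5. Slco1a1 and Gm6614 stay far from 0 on opposite sides in both, and Slco4c1 crosses 0.

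The order of the levels differed between the groups. In hypoxia Slco1a6 led, followed by Slco3a1, and then by Slco4c1, Slco1a1, Gm6614 and Slco2a1, whose neighbouring ranges overlapped. Slco1a4 was the lowest there. In controls Slco1a6 and Slco1a1 led with overlapping ranges, followed by Slco3a1, Slco4c1 and Slco2a1, each separated from its neighbour. Slco1a4 and Gm6614 were the lowest in controls, with overlapping ranges.

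The summed level of all Slco genes and Gm6614 was 105 ± 19.2 FPKM in hypoxia and 174 ± 25.2 FPKM in controls (SD, n = 5 each). Slco1a1 made up 4.97 ± 2.25% of that sum in hypoxia and 31.1 ± 5.35% in controls. Slco1a6 made up 55.1 ± 5.54% in hypoxia and 37.8 ± 3.89% in controls, a larger share at a level that overlapped. Gm6614 made up 5.02 ± 1.92% in hypoxia and 0.191 ± 0.0609% in controls. Within the 4 clustered genes, the ratio of Slco1a1 to Gm6614 was 0.320 to 2.35 in hypoxia libraries and 102 to 368 in control libraries. The gain of Gm6614 was thus small in FPKM beside the loss of Slco1a1.

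**Figure D3:**
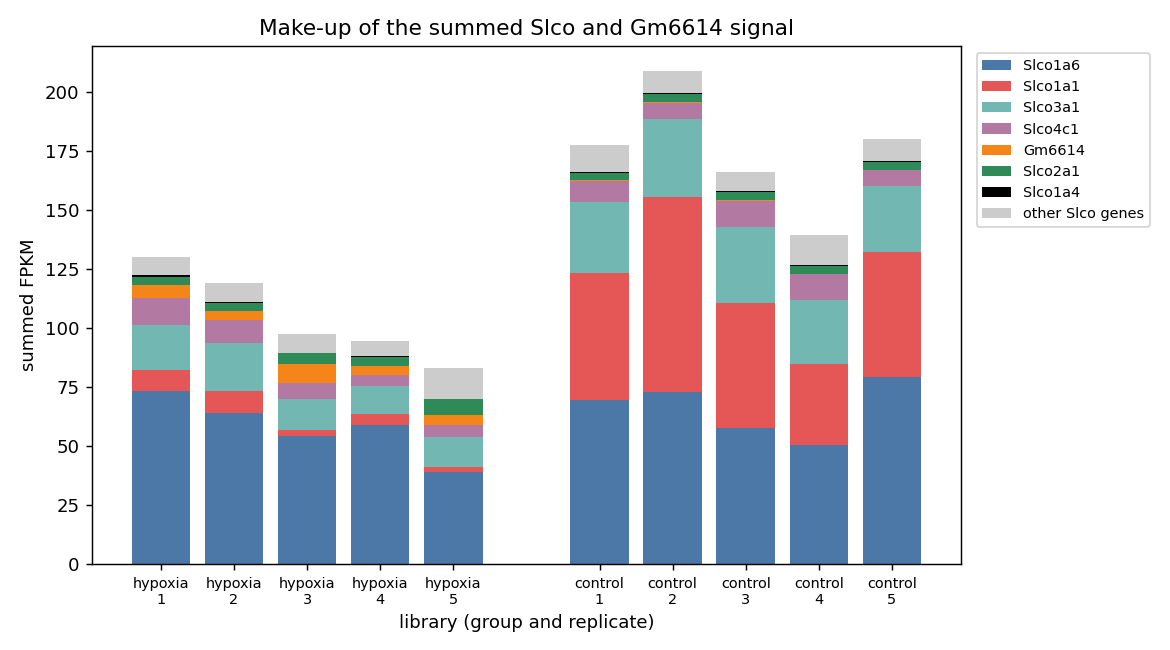
Summed FPKM of the Slco genes and Gm6614 in each library (y axis; bars, hypoxia on the left and control on the right), divided by gene. Slco1a1 is a thin band in the 5 hypoxia libraries and a broad one in the 5 control libraries, and Gm6614 is visible in hypoxia.

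Markers of the late proximal tubule, the segment where rat Slco1a1 protein is known to sit, summed over 6 genes to 456 to 807 FPKM in hypoxia and 750 to 1148 FPKM in controls. None of the 6 was at 0 in every library, and in bulk tissue fewer cells of a type and less RNA per cell cannot be told apart. Cyp7b1 and Slc22a19, which are among the 6, were themselves called lower in limma. The sum is therefore not independent of the calls given below. By library the sum was 791, 807, 518, 456 and 504 FPKM in hypoxia replicates 1 to 5, so that hypoxia replicates 1 and 2 alone reached the lowest control. The same libraries were the highest of their group for Slco1a1 and Slco3a1. The part of these cells in the values of Slco1a1 and Slco3a1 was not tested.

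The chromosome 6 neighbourhood was described within 500 kb on either side of the cluster. It held 29 genes, of which 13 reached the mean level tested, among them 10 that are no members. Of these 10, only Gm20400 passed, and it fell. Gm20400 is an antisense RNA gene on the plus strand within the introns of Slco1a6, with which it shares 0 exon bases. It had 1.89, 1.90, 0.439, 0.508 and 0.990 FPKM in hypoxia replicates 1 to 5, against 4.76, 3.39, 4.57, 4.30 and 10.6 FPKM in control replicates 1 to 5. The groups did not overlap, with control replicate 5 far above the other controls. These values rested on only 5 to 23 reads in hypoxia and 37 to 117 reads in controls. Gm20400 had a log2 fold change of -1.88 with an SE of 0.344 (limma adjusted p = 0.00839), and -1.68 without hypoxia replicates 4 and 5 (limma adjusted p = 0.0304). Whether reads were counted by strand is not given in the sources used here, so unspliced Slco1a6 reads in its exons cannot be told apart from its own.

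The other 9 neighbours did not pass in limma over all libraries (2 were higher at an unadjusted p under 0.05, and 1 with voom). Over all genes 4451 of 15264 were under that cut in either direction, and 791 were higher with voom. Pde3a, a phosphodiesterase gene at one edge, had a mean of 2.03 FPKM in hypoxia and 1.52 FPKM in controls (log2 fold change 0.33, limma adjusted p = 0.0720). Gm30784, a long noncoding RNA gene between Slco1a4 and Slco1a1, had 2.30 FPKM in hypoxia and 1.47 FPKM in controls (log2 fold change 0.45, limma adjusted p = 0.278). It passed without hypoxia replicate 5 (0.66, limma adjusted p = 0.0468), on only 14 to 46 reads in hypoxia and 11 to 24 reads in controls over all libraries. Ldhb, the lactate dehydrogenase subunit gene and the most abundant gene of the window, had 636 FPKM in hypoxia and 660 FPKM in controls (limma adjusted p = 0.760). Gys2, Golt1b, Kcnj8, Abcc9, Recql and Pyroxd1 had log2 fold changes between -0.30 and 0.28, with limma adjusted p of 0.124 to 0.691. The clustered genes Slco1a5 and Gm5724 were listed at 0 in every library, and their coding sequences matched those of the 4 clustered members at 82.8% to 89.4% of bases.

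**Figure D4:**
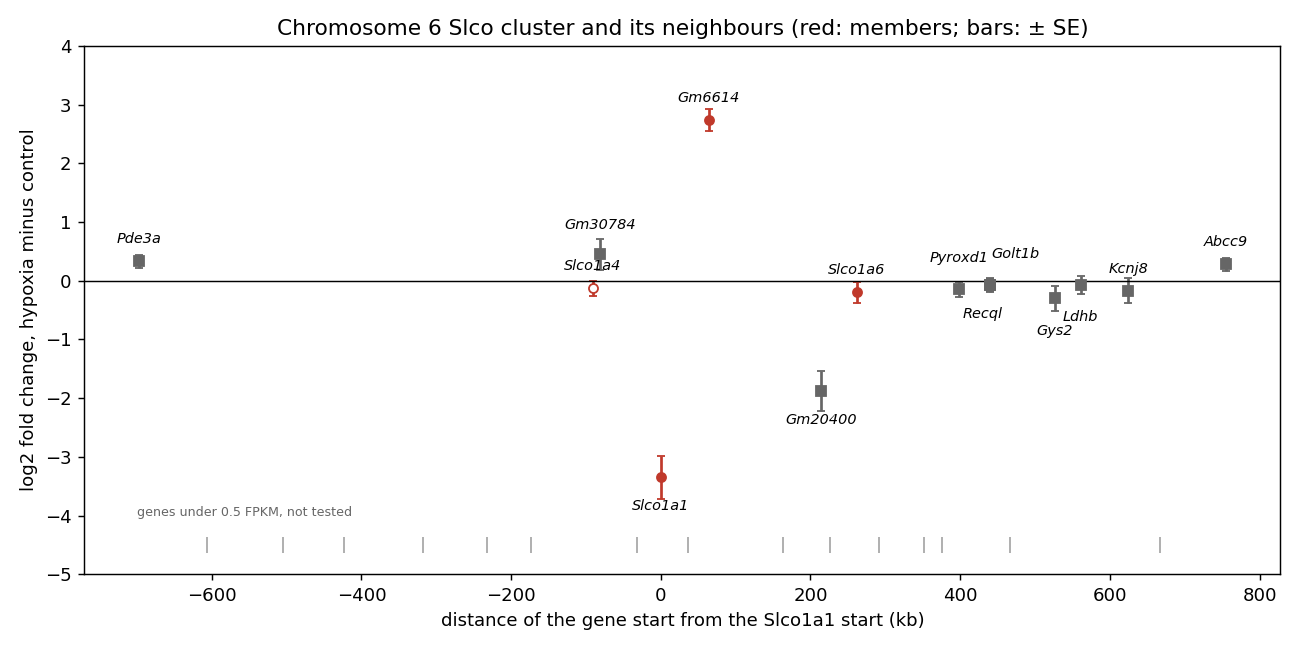
Log2 fold change, hypoxia minus control (y axis, bars ± SE), against the distance of each gene start from the Slco1a1 start in kb (x axis); red marks the members (Slco1a4, open, was not tested), grey squares the other genes tested, and ticks the genes with a mean under 0.5 FPKM. Slco1a1 and its neighbour Gm6614 lie at opposite ends, Gm20400 lies at -1.88, and the genes around the cluster lie near 0.

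The promoter of Slco1a1, the member that was lowest in hypoxia relative to controls, is shown as RefSeq gives it for GRCm38.p6 (chr6:141946913-141947212, minus strand, 250 bases before to 50 after the start). RefSeq promoters were found for 6 of the 7 members, Slco3a1 being without an entry. The sequence runs 5′ to 3′ and capitals mark matches to the motifs named after it.
Slco1a1: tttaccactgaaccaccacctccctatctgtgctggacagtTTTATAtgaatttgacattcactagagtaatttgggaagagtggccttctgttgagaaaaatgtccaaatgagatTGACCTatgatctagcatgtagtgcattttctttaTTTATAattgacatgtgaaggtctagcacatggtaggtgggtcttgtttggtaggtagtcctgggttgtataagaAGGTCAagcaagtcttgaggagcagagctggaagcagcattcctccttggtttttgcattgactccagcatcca

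Motifs were searched on both strands. The letters AGGTCA, read by many nuclear receptors, began at -134 on the reverse strand and at -24 on the forward strand, and 16.3% of 32851 promoters of the same length hold them. TATAAA, the TATA box, occurred at -209 and -99 on the reverse strand, and 13.6% of promoters hold it. The core letters of the hypoxia-inducible factor site, ACGTG (19.6% of promoters) and GCGTG (32.4%), were not in this window, nor were AGAACA of androgen and glucocorticoid receptors (19.0%), GTTAAT of HNF1 (7.10%), TTCNNNGAA of STAT factors (8.30%) or CACGTG, the E-box (7.15%), which contains ACGTG. A match is a description of letters and not a binding site. The window that RefSeq gives for Gm6614 is not shown, because its start lies 2669 bases from the gene start in the deposited table.

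Of 9 other Slco genes in the table, 4 were at 0 in every library and only Slco2b1 and Slco4a1 reached the tested level. Neither passed in limma or with voom, and 1 was lower at an unadjusted p under 0.05. Over all genes 4451 of 15264 were under that cut in either direction. Slco2b1, a broadly expressed carrier of steroid sulfates, averaged 5.93 ± 1.65 FPKM in hypoxia and 5.18 ± 0.862 FPKM in controls (SD, n = 5 each; limma adjusted p = 0.537). Slco4a1, a carrier of thyroid hormone, averaged 2.57 ± 0.972 FPKM in hypoxia and 4.90 ± 1.74 FPKM in controls (SD, n = 5 each), with a log2 fold change of -0.82 (limma adjusted p = 0.0852). It passed without hypoxia replicate 5 (-0.95, limma adjusted p = 0.0427).

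Genes listed as renal organic anion partners were counted next, beside 3.66% higher and 7.79% lower over all genes. This list was chosen with earlier results of these data known, as were the steroid, androgen, thyroid, prostaglandin and transcription factor lists below. Nothing is therefore read from their shares, and the p-values of their genes are a description only. The list holds carriers and also Pdzk1, Slc9a3r1 and Slc9a3r2, which are not carriers. At an unadjusted p under 0.05, 2 of 22 tested partners were higher and 10 lower, beside 4451 of 15264 genes in either direction. With voom 1 rose and 8 fell, beside 791 and 923 over all genes. In limma 0 rose and 8 fell, with a median log2 fold change of -0.26 against 0.012 over all genes tested. Among those that fell, Slc22a28 and Pdzk1, named after their values were seen, each lost the call in 6 single-library omissions (limma adjusted p of 0.0502 to 0.0798). Slc22a7, an organic anion transporter, fell to 6.12 FPKM in hypoxia, against 142 FPKM in controls (log2 fold change -4.80, limma adjusted p = 0.000348). Slc22a6, which takes up para-aminohippurate from blood, fell to 117 FPKM in hypoxia, against 263 FPKM in controls (-1.18, limma adjusted p = 0.00429). Slc22a30, of the same family, fell to 24.7 FPKM in hypoxia, against 53.5 FPKM in controls (-1.14, limma adjusted p = 0.00400). Without hypoxia replicates 4 and 5, 2 partners rose and 7 fell, with a median of -0.11, beside 4.53% higher and 7.75% lower over all genes. The late proximal tubule markers, which include the partner Slc22a19, were below the lowest control in 3 of 5 hypoxia libraries (456 to 807 FPKM in hypoxia, 750 to 1148 FPKM in controls), and their part in these falls was not tested.

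Genes of steroid and steroid conjugate metabolism, some of whose products Slco1a1 carries, gave 0 rises and 6 falls in limma among 26 tested. Over all genes 3.66% were higher and 7.79% lower. The median log2 fold change of the list was -0.088, against 0.012 over all genes tested. Among the falls, Hsd3b2, named after its value was seen, lost its call in 5 single-library omissions (limma adjusted p of 0.0527 to 0.0704). At an unadjusted p under 0.05, 2 were higher and 10 lower, beside 4451 of 15264 genes in either direction. With voom 1 rose and 6 fell, beside 791 and 923 over all genes. Cyp7b1, a hydroxylase of oxysterols and steroids and also a late proximal tubule marker, fell to 13.8 FPKM in hypoxia, against 95.2 FPKM in controls (-2.74, limma adjusted p = 8.04e-05). Akr1c18, which reduces progesterone, fell to 3.12 FPKM in hypoxia, against 23.3 FPKM in controls (-2.78, limma adjusted p = 0.000762). Hsd17b2, which oxidises estradiol and testosterone, fell to 2.59 FPKM in hypoxia, against 9.60 FPKM in controls (-1.73, limma adjusted p = 0.00140). Without hypoxia replicates 4 and 5, 2 rose and 7 fell, beside 4.53% higher and 7.75% lower over all genes, and the median of the list turned to 0.019.

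Of 12 tested androgen-responsive kidney genes, 1 rose and 5 fell in limma, beside 3.66% higher and 7.79% lower over all genes. Their median log2 fold change was -0.59. The counts were the same without hypoxia replicates 4 and 5, beside 4.53% higher and 7.75% lower over all genes there. At an unadjusted p under 0.05, 2 were higher and 7 lower, beside 4451 of 15264 genes in either direction. With voom 1 rose and 4 fell, beside 791 and 923 over all genes. With a replicate block 0 rose and 3 fell, beside 265 and 734 over all genes. Kap, named after its value was seen, fell (-0.92, limma adjusted p = 0.0498), and its call was lost in 8 single-library omissions. Odc1, the ornithine decarboxylase of polyamine synthesis, fell to 114 FPKM in hypoxia, against 330 FPKM in controls (-1.51, limma adjusted p = 0.000471). Acsm3, a medium-chain acyl-CoA synthetase, fell to 39.0 FPKM in hypoxia, against 162 FPKM in controls (-2.33, limma adjusted p = 0.00803). Cyp2j13, a cytochrome P450, fell to 38.6 FPKM in hypoxia, against 64.9 FPKM in controls (-0.75, limma adjusted p = 0.0117). The gene that rose, named here after its value was seen, was Cyp4a12b, a fatty acid hydroxylase with a near-identical copy in Cyp4a12a, so its reads may be shared. It had 8.89 FPKM in hypoxia and 5.23 FPKM in controls (0.70, limma adjusted p = 0.0396). Its call was lost without any single control replicate and without hypoxia replicates 1, 3 or 4 (limma adjusted p of 0.0582 to 0.0885), and also without a filter on low values.

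Thyroid hormone genes gave 1 rise and 2 falls among 11 tested, beside 3.66% higher and 7.79% lower over all genes, with a median log2 fold change of -0.24. With voom 0 rose and 2 fell, beside 791 and 923 over all genes. At an unadjusted p under 0.05, 1 was higher and 3 lower, beside 4451 of 15264 genes in either direction. Dio1, the deiodinase that activates thyroxine, fell to 6.45 FPKM in hypoxia, against 22.7 FPKM in controls (-1.79, limma adjusted p = 0.000610). Ttr, the thyroxine-binding transthyretin, fell to 28.1 FPKM in hypoxia, against 117 FPKM in controls (-2.12, limma adjusted p = 0.00235). Slc7a5, an amino acid carrier that also takes thyroid hormone, rose to 3.72 FPKM in hypoxia, against 0.750 FPKM in controls (1.47, limma adjusted p = 0.0405). That call was lost without each of control replicates 1 to 5 and without hypoxia replicate 4, with limma adjusted p of 0.0694 to 0.0906. Without both hypoxia replicates 4 and 5 Slc7a5 passed, at a smaller log2 fold change of 0.76 (limma adjusted p = 0.00850).

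Prostaglandin genes, which share a substrate with Slco2a1 and Slco3a1, gave 1 rise and 2 falls among 18 tested, beside 3.66% higher and 7.79% lower over all genes, with a median log2 fold change of 0.21. At an unadjusted p under 0.05, 4 were higher and 4 lower, beside 4451 of 15264 genes in either direction. With voom 2 rose and 2 fell, beside 791 and 923 over all genes. Without hypoxia replicates 4 and 5, 2 rose and 1 fell, beside 4.53% higher and 7.75% lower over all genes. Ptges2, a prostaglandin E synthase, fell to 6.70 FPKM in hypoxia, against 10.1 FPKM in controls (-0.56, limma adjusted p = 0.00788). Ptges, the inducible prostaglandin E synthase, fell to 6.66 FPKM in hypoxia, against 10.1 FPKM in controls (-0.58, limma adjusted p = 0.0294). The prostaglandin F receptor gene Ptgfr rose to 6.32 FPKM in hypoxia, against 4.18 FPKM in controls (0.52, limma adjusted p = 0.0329). The call of Ptges was lost without control replicates 1, 4 or 5 or hypoxia replicates 1 or 4 (limma adjusted p of 0.0572 to 0.0720). That of Ptgfr was lost without any single control replicate and without hypoxia replicates 1, 3 or 4 (limma adjusted p of 0.0577 to 0.0820).

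Of 18 tested transcription factor genes known to act on Slco genes, 0 rose and 1 fell in limma. This stands beside 3.66% higher and 7.79% lower over all genes. Their median log2 fold change was -0.049, or 0.030 without hypoxia replicates 4 and 5. At an unadjusted p under 0.05, 4 were higher and 4 lower, beside 4451 of 15264 genes in either direction. With voom 2 rose and 1 fell, beside 791 and 923 over all genes. Nr1h3, the oxysterol receptor LXR alpha, fell, with 15.2 FPKM in hypoxia and 21.9 FPKM in controls (-0.52, limma adjusted p = 0.0158).

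Within the groups the members did not all vary together. After the group means were removed, Pearson r over the 10 libraries was 0.82 between Slco1a1 and Slco3a1 and 0.80 between Slco1a1 and Slco1a6. It was -0.40 between Slco1a1 and Gm6614, the latter on only 9 to 17 reads in controls. Between Slco1a1 and Slco2a1 it was -0.77, which rested on the hypoxia libraries, since the value was -0.90 over the 5 hypoxia libraries and 0.0088 over the 5 controls. These libraries share tissue make-up, and hypoxia replicates 4 and 5 are among them, so r is a description only.

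**Figure D5:**
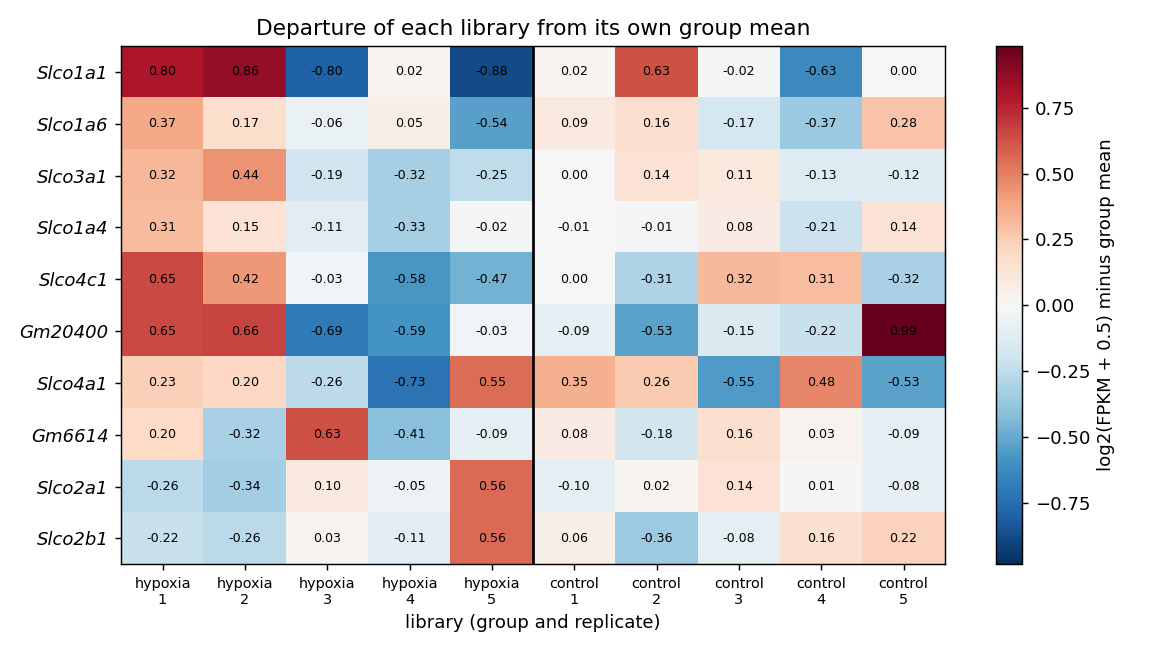
Departure of each library (columns, hypoxia on the left and control on the right) from its own group mean, in log2(FPKM + 0.5), for the 7 members and the genes Slco2b1, Slco4a1 and Gm20400. Hypoxia replicates 1 and 2 lie above their group mean for Slco1a1, Slco3a1, Slco1a6 and Slco4c1, and hypoxia replicate 5 lies above it for Slco2a1 and Slco2b1.

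The genes most like a member by the same r were searched among 9950 protein-coding genes that averaged 2 FPKM or more. For Slco1a1 they were Cckar (0.97), the cholecystokinin receptor gene, Epdr1 (0.96) and Smim11 (0.96). For Slco4c1 they were Sim1 (0.98), Polr3gl (0.95) and Fam107a (0.95). For Slco2a1 they were Dpp9 (0.98), Cnot1 (0.98) and Ptk2b (0.97), and for Slco1a4 Aasdhppt (0.97), Smurf2 (0.94) and Olfm4 (0.92). Slco2a1 departed most from its group mean in hypoxia replicate 5 (0.56 in log2), and r without that library was not computed. For Gm6614 the highest values were lower, 0.87 with Arfgef1 and 0.86 with both Pign and Drosha. Its control values rested on 9 to 17 reads, and the part of counting noise in these r was not tested.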

How the data were processed

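RNA sequencing of 10 kidney samples was deposited by the authors as FPKM for each gene. Gene length in bases, an other unit in the deposited table, was used here only to recover reads. The submitters' processing notes name HISAT2 2.0.5 and the human build hg38, although 55141 identifiers are found in a mouse GRCm38 annotation, 99.4% of them with identical coordinates. Counting tool, strand setting and annotation were not given in the sources used here. Rows with no gene name numbered 465.

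FPKM times length gave whole reads in 100% of values (tolerance 0.05). Floors are 3 reads and cover counting error only. The 15264 genes whose mean reached 0.5 FPKM entered a two-sided limma fit (3.58.1, R 4.3.3; eBayes with trend and robust options) of log2(FPKM + 0.5) on group, with Benjamini-Hochberg adjustment over all of them and a threshold of 0.05. Coding sequences came from the GRCm38 annotation, and Biopython 1.88 and matplotlib 3.10.9 in Python 3.11.15 were used.

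The members and lists were chosen with earlier results of these data known. Named genes are the members, up to 3 genes of each list with the smallest p past the threshold (or the 2 most abundant), all tested genes within 500 kb of the cluster, and the 3 genes most like 5 of the members. No libraries were alike within sampling noise. Alternatives covered scaling, pseudocount, filters, error model, weights, limma voom on recovered reads, a replicate block and each library left out.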

Additional observations from a re-analysis of the deposited data

Results flagged for a closer look

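Gm20400 stood at 10.6 FPKM in control replicate 5, far from the 3.39 to 4.76 FPKM of the other controls, and its gap to the nearest of them was 0.810 of the range of the group, above Dixon's 95% critical value of 0.71. Of 35 groups of 5 libraries checked this was the only such sample, and chance alone flags about 1 group in 20.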

How the results depend on the processing

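The calls of Slco1a1, Slco3a1 and Gm6614, and the absence of a call for Slco1a6, Slco2a1 and Slco4c1, held in all 21 alternatives. This is a description only, since the members were picked on this contrast. Scaling by median of ratios could not change a call, because its factors were 1.00083 in every library. Gm6614 reached the filter of 0.5 FPKM only through hypoxia, with a mean of 0.322 FPKM in controls. The log2 fold change of Gm6614 was 3.40 with TPM scaling, 3.60 with a pseudocount of 0.1, 2.18 with a pseudocount of 1 and 3.99 with voom on recovered reads; the added constant weighs less or more on a low gene in these by construction. Over the omission of each library it was 2.58 to 2.84, that of Slco1a1 -3.57 to -3.13, and that of Slco3a1 -1.09 to -0.89. Over all genes 1748 passed (559 higher, 1189 lower). The count was 966 (263 higher, 703 lower) without a filter, 3253 (1309 higher, 1944 lower) with library weights, and 651 higher against 927 lower with TPM scaling and 791 against 923 with voom. Leaving out each library gave 824 to 2724 genes, 221 to 1094 higher and 603 to 1630 lower, the most without hypoxia replicate 5. Distinct list genes passing numbered 43 with library weights and 19 to 38 with a library left out. A replicate block gave 999 (265 higher, 734 lower). Samples with the same number correlated at -0.077 to 0.086 and 2 of 5 best with their own number, so they share only a number. Ldhb, which passed in no alternative, changed sign to 0.032 with library weights, 0.036 without hypoxia replicates 4 and 5 and 0.064 without hypoxia replicate 5 (range over omitted libraries -0.14 to 0.064). Pde3a passed with library weights (adjusted p = 0.0409) and voom (0.0376), and Slco4a1 with library weights (0.0368). The calls of Ptges, Ptgfr, Slc7a5 and Cyp4a12b were lost in 4, 2, 4 and 2 alternatives that kept every library or left out 2. Other list calls were lost too. Falls of renal partners went from 8 to 6 without a filter and 7 with a replicate block. Those of androgen-responsive genes went from 5 to 4 with TPM scaling, a pseudocount of 1 or no filter, and to 3 with a replicate block. With library weights these falls numbered 10 and 6. For the other changes the cause was not tested. Depth limits Slco1a4 (17 to 58 reads), Gm6614 in controls (9 to 17 reads), Gm20400 in hypoxia (5 to 23 reads) and Gm30784 (11 to 46 reads).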

Other observations

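Slco1b2, a hepatocyte carrier, was at 0.346 FPKM in hypoxia replicate 2 and at most at 0.0371 FPKM in controls. Hepatocyte markers, a list that includes Slco1b2, summed to 61.9 FPKM in that library, against 6.51 to 12.5 FPKM in controls. Slco5a1 was at 0.259 FPKM in hypoxia replicate 5, the library with B cell markers at 321 FPKM, and at most at 0.00464 FPKM in controls. Neither gene reached the level tested.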
